A study of Rattus norvegicus with 10 samples.

Results

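The miR-34 family was measured on miRNA arrays of the medial prefrontal cortex (mPFC) through the probes of rno-miR-34a, rno-miR-34b and rno-miR-34c (miR-34a, miR-34b and miR-34c), which were picked by name and not by their values, 3 of the 679 rat miRNA probes. Each array came from 1 male wild-type Sprague Dawley rat of 2 months. The 5 chronic morphine-treated rats received 2 intraperitoneal morphine injections daily over 5 days, with the dose of each injection raised by day (10, 20, 30, 40 and 40 mg/kg), and the 5 saline-treated rats were injected with saline on the same schedule. The comparison asked which miRNAs differ in the mPFC after chronic morphine. Total RNA was labeled with the dye Hy3 and hybridized to 1-color miRCURY LNA arrays, whose capture probes hold locked nucleic acid and were spotted 4 times each. A piece of cortex holds several cell types, so that fewer cells of a type and less of a miRNA per cell cannot be told apart.

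The miR-34 miRNAs are transcribed under the tumor suppressor p53 and bind mRNAs of cell cycle and survival genes through their seed, the bases that pair with a target. In brain, miR-34a is known for its part in neuronal maturation, and miR-34c, in mice, for effects on memory and on the stress response. miR-34b and miR-34c arise from a shared transcript that is also abundant in cells with many motile cilia, as are the miR-449 miRNAs of the same seed. The mature sequences (RefSeq, GRCr8) are shown because all 3 members carry the same seed, in capitals (bases 2 to 8), and differ only outside it.
miR-34a: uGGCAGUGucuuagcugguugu
miR-34b: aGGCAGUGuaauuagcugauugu
miR-34c: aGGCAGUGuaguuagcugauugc
miR-449a: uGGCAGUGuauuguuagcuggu
miR-449c-5p: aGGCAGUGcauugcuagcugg
These 5 were the only ones with this seed among the 693 mature rat miRNAs of the table. miR-34b and miR-34c had the same base at 21 of 23 positions and differed by A11G and U23C, counted from the 5′ end with the miR-34b base first. Probe sequences were not used here, and how far the miR-34b and miR-34c probes bind each other's miRNA was not tested. The opposite strands of the 3 hairpins, marked with a star on the array, have other seeds, and those of miR-34b and miR-34c share theirs.
miR-34a*: aAUCAGCAaguauacugcccua
miR-34b*: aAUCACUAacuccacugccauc
miR-34c*: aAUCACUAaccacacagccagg
Mature miR-34a lies at chr5:165815971-165815992 on the plus strand (GRCr8), within the span of the noncoding gene LOC103692514. Mature miR-34b lies at chr8:60306657-60306679 and miR-34c at chr8:60306133-60306155, both on the minus strand, and 441 bases separate their hairpins. The miR-34c hairpin lies within the span of the protein-coding gene Hoatz, the miR-34b hairpin overlaps its end, and Btg4 is the next protein-coding gene.

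The arrays differed in more than the miR-34 family, and all exact permutation tests given here were two-sided. Probes at a background-subtracted intensity of 30 or more, taken here as detected, numbered 260 to 419 of the 679 on the morphine arrays and 180 to 281 on the saline arrays (exact permutation p = 0.0159, n = 5 per group). The median local background was 63 to 141 on the morphine arrays and 84 to 348 on the saline arrays (exact permutation p = 0.143, n = 5 per group). Of the 301 probes that were detected on at least 5 arrays, 98 were higher and 35 lower in morphine-treated rats (limma, adjusted p under 0.05), which is 44.2% of them, with 32.6% higher and 11.6% lower. The counts of higher and lower probes changed with the processing. They were 70 and 45 on unsubtracted foreground, 45 and 50 under normexp, 67 and 63 under quantile normalization, 46 and 54 under cyclic loess, and 65 and 69 if arrays were scaled over every tested probe. They were 90 and 86 if intensities were counted from the negative controls and probes selected anew. Among the 120 probes detected on all 10 arrays they were 19 and 14, with a median log2 fold change of -0.21 against 0.45 over the 301. Neuronal markers were in large part at background on the saline arrays. Of 10 such probes 7 were undetected on all 5 saline arrays, miR-9 and miR-128 among them. The summed scaled intensity of the 10 (values below 0 counted as 0) was 45298 to 145817 on the morphine arrays and 2967 to 6333 on the saline arrays. miR-124, miR-9* and miR-138 were detected on all 5 saline arrays, at mean scaled intensities of 956, 2812 and 184. Their means on the morphine arrays were 51449, 14918 and 4518. Of 8 vessel wall and connective tissue probes, 2 were higher and 4 lower, and the sum was 1869 to 8182 on the morphine arrays and 11534 to 42664 on the saline arrays. All 5 tested blood and immune cell probes were higher, with a sum of 1421 to 8571 on the morphine arrays and 28.3 to 221 on the saline arrays. Some of these 5 were undetected on every saline array and entered the test through the morphine arrays alone. The count of higher probes was thus in part set by which probes were tested. Of 2 tested oligodendrocyte probes 1 was higher and 1 lower (sum 223 to 1728 on the morphine arrays and 98.6 to 1027 on the saline arrays), and of 2 tested muscle probes 1 was lower and 1 did not pass (sum 27.6 to 194 on the morphine arrays and 77.7 to 1695 on the saline arrays). miR-9 was at least 305-fold and miR-128 at least 185-fold higher on the morphine arrays (limma, adjusted p = 9.31e-08 and 5.56e-07). Both entered the test through the morphine arrays alone, so these p do not measure a spread between saline-treated rats. The 2 fold values hold for subtracted local background only, and no other baseline is given for these probes. On the saline arrays 7 of the 10 neuronal markers were thus undetected after local background was subtracted. Whether the RNA of those arrays came from mPFC of the same makeup could not be settled here. For every miR-34 value below, morphine treatment and tissue makeup cannot be told apart.

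miR-34c was higher in chronic morphine-treated rats. Its background-subtracted intensity before scaling was 148, 224, 159, 153 and 206 in morphine-treated rats 1 to 5, against -19.2, -37.0, 10.2, -123 and -349 in saline-treated rats 1 to 5. It was detected in all 5 morphine-treated rats and in 0 of 5 saline-treated rats, and the groups did not overlap. The 20 single spots per group, 4 from each of the same 5 rats, ran from 74 to 369 on the morphine arrays and from -1027 to 41 on the saline arrays. They are repeats within a rat and add no rats. The lowest of these spots, in saline-treated rat 5, had a local background of 1285, and the median of that rat's 4 spots was -140.5. After each array was scaled to its median over the 120 rat miRNA probes detected on all 10 arrays, miR-34c averaged 168 ± 38.0 in morphine-treated rats and -121 ± 170 in saline-treated rats (SD, n = 5 per group). On this scale miR-34c was at least 4.96-fold higher in morphine-treated rats (limma, adjusted p = 0.000216 over 301 probes), a bound for subtracted local background only, since the other baselines given next put it lower. Here the mean log2 value of the morphine arrays was set against that of the highest, on each saline array, of 30, the lowest scaled signal among detected probes and the signal of miR-34c. The log2 fold change with values under 30 set to 30 was 2.45 (SE 0.38), which depends on that floor and is no bound, and the median over all 301 probes was 0.45. miR-34c entered the test through the morphine arrays alone, and all 5 saline values lay at the floor. Its limma p and SE thus do not measure a spread between saline-treated rats. By p, miR-34c came 28th of the 301 tested probes, and 21.3% of them had all morphine arrays above all saline arrays, against 8.31% with all below. The call was lost with the normexp background (log2 fold change 0.34, limma, adjusted p = 0.372) and after cyclic loess (0.58, limma, adjusted p = 0.449).

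**Figure D1:**
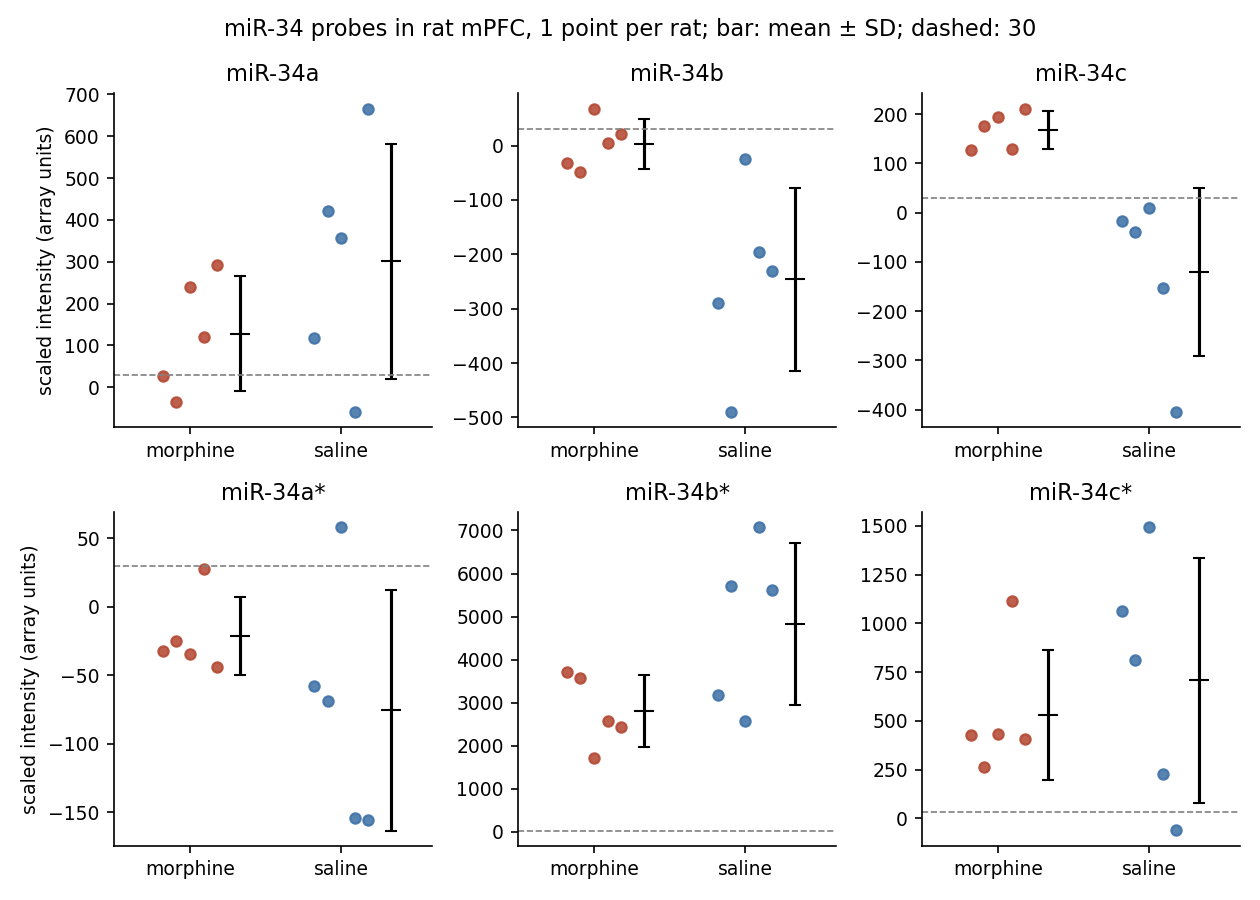
Scaled intensity (array units, linear axis with its own range in each panel) of the 3 miR-34 probes in the top row and their opposite strands in the bottom row, 1 point per rat, morphine left and saline right, with the mean ± SD of 5 rats and a dashed line at 30. All 5 morphine arrays lie above all 5 saline arrays for miR-34c, and the groups overlap in the other panels. For miR-34b, 4 of 5 morphine arrays and all saline arrays lie under 30.

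How far miR-34c stood apart depended on what was taken as zero. On 4 of 5 saline arrays the local background around the miR-34c spots exceeded the light on them, so that the subtracted mean lay below 0. Counted from each array's median negative control (7 probes), miR-34c had an intensity of 204, 299, 196, 144 and 248 in morphine-treated rats 1 to 5, against 36.0, 56.0, 37.8, 28.8 and 85.8 in saline-treated rats 1 to 5. On this baseline all 10 values were above 0 and the groups did not overlap, with a mean of 218 ± 58.3 in morphine-treated rats and 48.9 ± 22.9 in saline-treated rats (SD, n = 5 per group), a ratio of 4.47 (exact permutation p = 0.00794, the smallest that 5 rats against 5 allow). Of the 7 negative controls, 0 to 1 read above miR-34c on the morphine arrays and 1 to 2 on the saline arrays. With nothing subtracted, the foreground averaged 291 ± 61.0 in morphine-treated rats and 146 ± 55.3 in saline-treated rats (SD, n = 5 per group). There the groups met, as saline-treated rat 5 at 237 lay above morphine-treated rat 4 at 216 (exact permutation p = 0.0159).

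**Figure D2:**
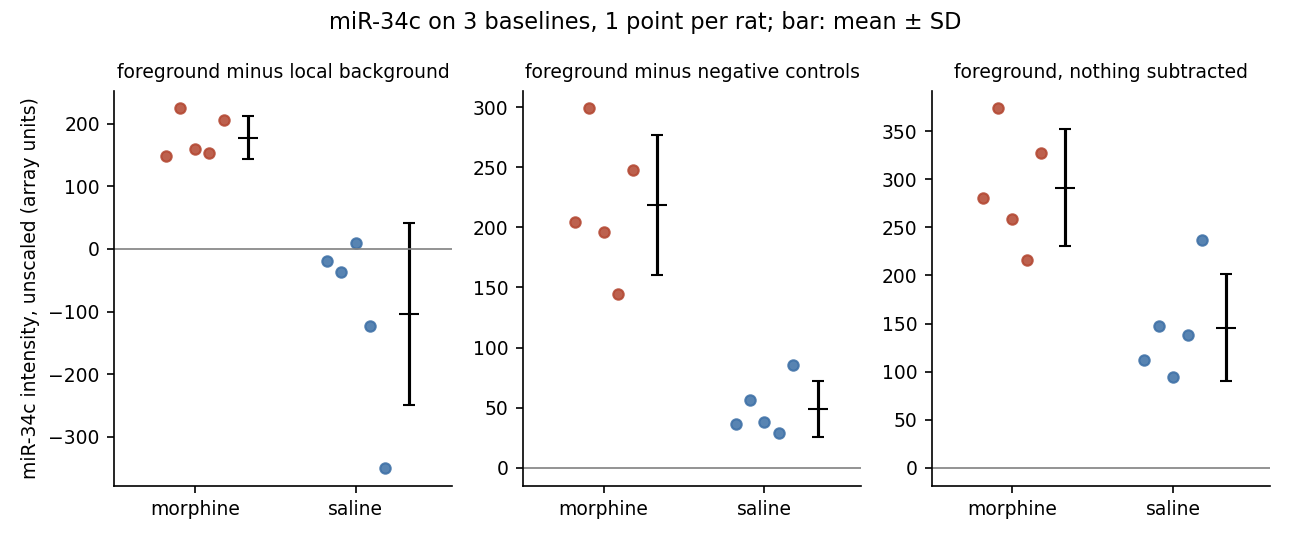
Unscaled miR-34c intensity (array units) of each rat after subtracting the local background, after subtracting the median negative control of the array, and with nothing subtracted, morphine left and saline right, with mean ± SD of 5 rats. The groups are apart in the first 2 panels and overlap by 1 rat of each group in the third.

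miR-34a, the member encoded on its own and the one most studied as a p53 target, did not differ beyond the spread between rats. Its scaled intensity was 26.8, -36.2, 240.0, 119 and 291 in morphine-treated rats 1 to 5, against 119, 420.1, 358, -59.4 and 666 in saline-treated rats 1 to 5. Before scaling, it was detected in 4 of 5 rats of each group, with morphine-treated rat 2 and saline-treated rat 4 below background, and the groups overlapped over most of their range. The mean was 128 ± 138 in morphine-treated rats and 301 ± 280.1 in saline-treated rats (SD, n = 5 per group). The log2 fold change was -1.12 (95% interval -3.09 to 0.86, limma, adjusted p = 0.374), an interval that holds a large fall as well as no change. Spots of miR-34a also varied within an array, from -22 to 307 in saline-treated rat 1 and from 255 to 318 in morphine-treated rat 5. With quantile normalization the log2 fold change was -2.44 and with cyclic loess -2.97, and miR-34a then passed (limma, adjusted p = 0.0183 and 0.0163).

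miR-34b was at background in nearly all rats and was not among the 301 tested probes. Before scaling its intensity was -37.5, -61.2, 55.2, 5.25 and 20.2 in morphine-treated rats 1 to 5, against -318, -460, -26.0, -158 and -198 in saline-treated rats 1 to 5. Only morphine-treated rat 3 reached 30. The values of saline-treated rats 1 and 2 rested on 1 spot each with a local background of 1228 and 1625, and their medians over 4 spots were -59.0 and -111. Above the negative controls miR-34b had an intensity of 27.8, 5.25, 99.0, -2.50 and 79.2 in morphine-treated rats 1 to 5, against 0.00, 0.75, 4.50, 5.00 and -10.8 in saline-treated rats 1 to 5. Thus 4 of 5 morphine-treated rats lay above every saline-treated rat, rat 2 by a narrow margin, and morphine-treated rat 4 did not (exact permutation p = 0.0794, n = 5 per group). With values under 30 set to 30, the log2 difference was 0.23 (exact permutation p = 1), a value that rests on morphine-treated rat 3 alone and was 0 without that rat.

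The opposite strands of the 3 hairpins showed no call. miR-34b*, from the same hairpin as the dark miR-34b probe, was detected in all 10 rats. Its scaled intensity was 3705, 3581, 1718, 2575 and 2427 in morphine-treated rats 1 to 5, against 3185, 5710, 2570.4, 7077 and 5621 in saline-treated rats 1 to 5. The 3 highest values were from saline-treated rats, but the groups overlapped, and the log2 fold change was -0.74 (95% interval -1.71 to 0.23, limma, adjusted p = 0.211). With scaling over all tested probes it was -1.86 and passed (limma, adjusted p = 0.0211). miR-34c* was detected in 5 of 5 morphine-treated and 4 of 5 saline-treated rats. Its scaled intensity was 427, 264, 434, 1114 and 407 in morphine-treated rats 1 to 5, against 1064, 812, 1493, 229 and -62.9 in saline-treated rats 1 to 5. Saline-treated rats held both the highest and the lowest values, and the log2 fold change of 0.26 (95% interval -1.73 to 2.26, limma, adjusted p = 0.828) had no stable sign. miR-34a* was detected in morphine-treated rat 4 (32.5 before scaling) and saline-treated rat 3 (58.8 before scaling) and in no other rat, and was not tested by limma. Its unsubtracted foreground averaged 87.8 ± 15.9 in morphine-treated and 137 ± 42.2 in saline-treated rats (SD, n = 5 per group, exact permutation p = 0.0238). Above the median negative control its means were 14.8 and 40.5 (exact permutation p = 0.127). Of the miR-449 probes, miR-449a, miR-449a* and miR-449c-5p were undetected in all 10 rats. miR-449c-3p was detected in 0 of 5 morphine-treated rats and 3 of 5 saline-treated rats (exact permutation p on floored log2 values = 0.167). With nothing subtracted its foreground was 56.8 to 81.8 on the morphine arrays and 84.5 to 644 on the saline arrays, with no overlap (exact permutation p = 0.00794). The median negative control read 62.25 to 79 on the morphine arrays and 56.5 to 151.5 on the saline arrays. Above it, miR-449c-3p had -9.0 to 7.0 on the morphine arrays and -6.5 to 493 on the saline arrays, and the groups overlapped (exact permutation p = 0.0476). The choroid plexus and ciliated cell markers, which include miR-449a and miR-449c-5p, had a summed scaled intensity of 0 to 221 on the morphine arrays and 118 to 691 on the saline arrays, and miR-211 was the 1 tested and was lower (log2 fold change -2.39, limma, adjusted p = 0.00586). Of the 5 miRNAs that carry the GGCAGUG seed, 2 were tested and miR-34c was the 1 that passed, beside the 44.2% of all tested probes that did.

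Ratios of 2 probes within an array need no scaling between arrays and were used to set the members' changes against each other. Over 4 such ratios, none passed after adjustment. The log2 ratio of miR-34c over miR-34a, with values under 30 set to 30, was 2.24, 2.90, -0.30, 0.13 and -0.46 in morphine-treated rats 1 to 5, against -2.12, -3.72, -3.59, 0.00 and -4.26 in saline-treated rats 1 to 5. It was lower in 4 of 5 saline-treated rats than in any morphine-treated rat, with saline-treated rat 4, where both probes were below 30, as the exception. The difference between groups was 3.64 (exact permutation p = 0.0238, adjusted p = 0.0952 over 4 ratios). Since miR-34c was under 30 on all 5 saline arrays, its size follows the floor, at 5.22 with a floor of 10 and 1.57 with a floor of 100 (exact permutation adjusted p = 0.0952 and 0.159). On the negative-control baseline the difference was 3.55 and passed (exact permutation adjusted p = 0.0317), and with nothing subtracted it was 2.07 (exact permutation adjusted p = 0.0317). miR-34c over its own opposite strand miR-34c* differed by 2.14 (exact permutation p = 0.111, adjusted p = 0.222), as its mean was -1.51 ± 0.98 in morphine-treated rats and -3.64 ± 2.35 in saline-treated rats (SD, n = 5 per group). This difference was 3.40 with a floor of 10 and 0.75 with a floor of 100. The other 2 ratios, of miR-34a over miR-34a* and miR-34b over miR-34b*, are not given, because miR-34a* was under 30 on 8 of 10 arrays and miR-34b on 9 of 10.

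**Figure D3:**
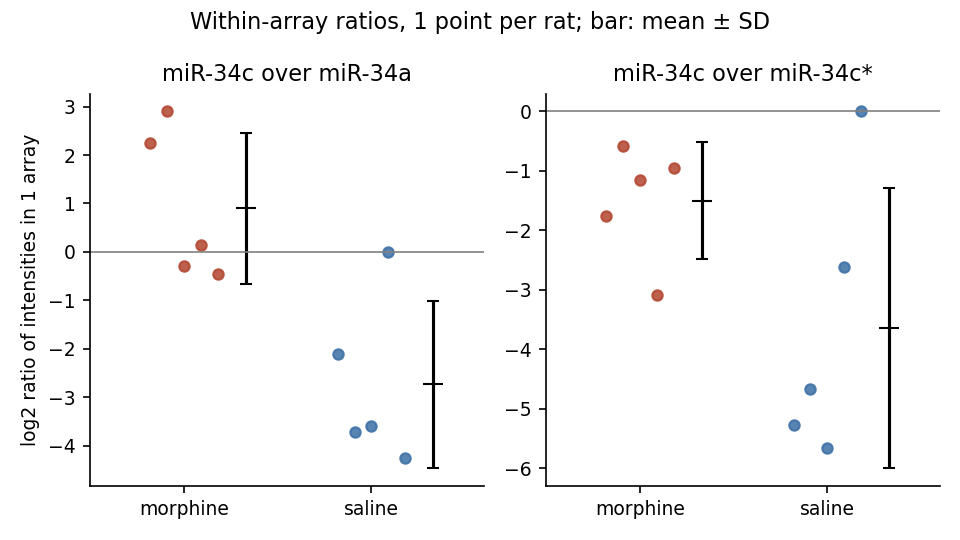
Log2 ratio of the background-subtracted intensities of 2 probes within each array, with values under 30 set to 30, 1 point per rat, morphine left and saline right, with the mean ± SD of 5 rats. For miR-34c over miR-34a, 4 saline points lie below all morphine points and saline-treated rat 4 lies at 0.

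**Figure D4:**
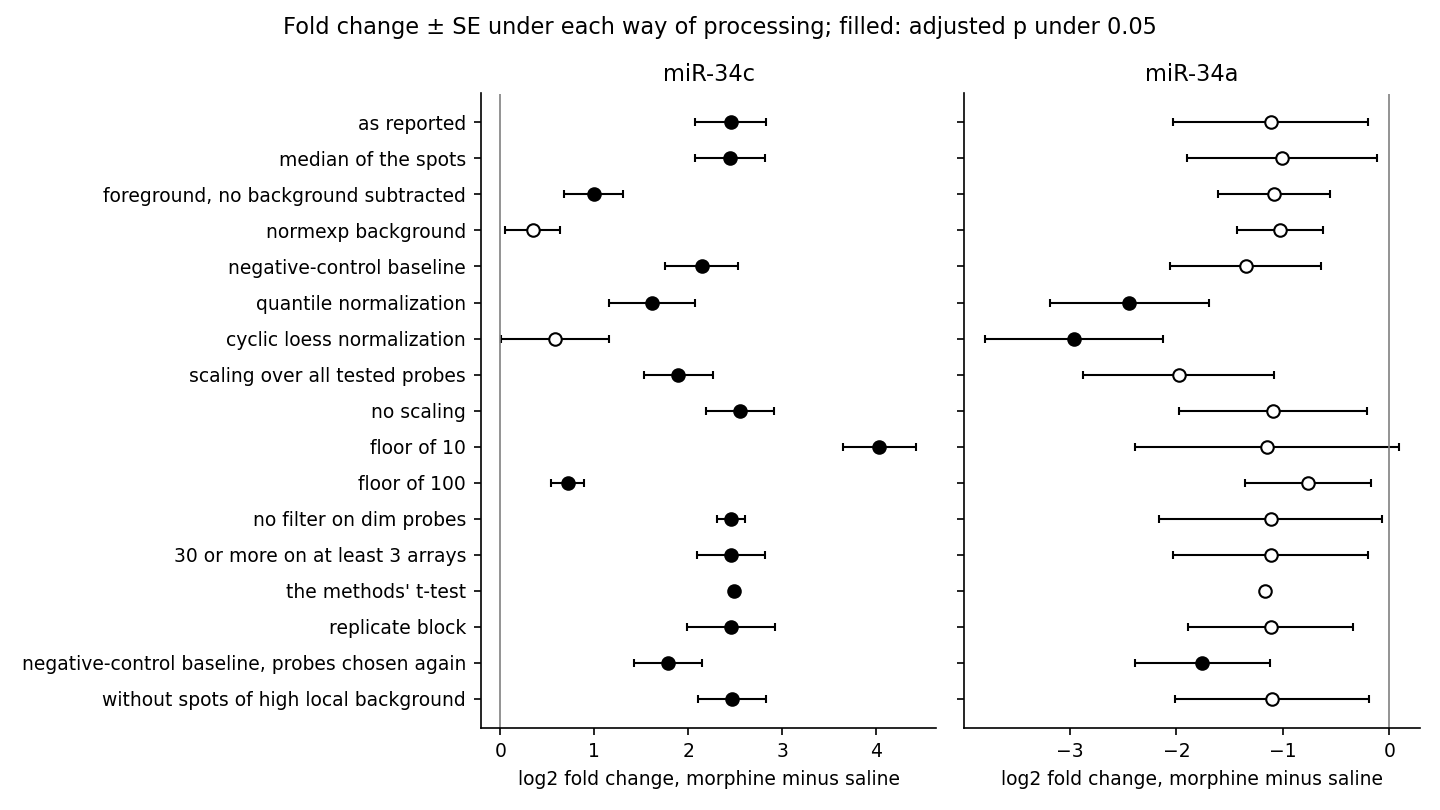
Log2 fold change (morphine minus saline) of miR-34c and miR-34a under each way of processing, with the SE where the test gives one, and filled where the adjusted p was under 0.05. miR-34c was above 0 in all, from 0.34 to 4.03, and miR-34a below 0 in all, from -2.97 to -0.77, as plotted.

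The profiles most like those of the tested members were found by the root mean square difference of log2 values over the 10 arrays, each miRNA centered on its own mean. For miR-34c they were miR-664-1* (0.45), miR-322 (0.48), a growth arrest miRNA of the miR-15 seed group, and miR-369-5p (0.52) of the imprinted Dlk1-Dio3 cluster, against a median of 1.49 over all other tested probes. Like miR-34c, miR-664-1* and miR-322 were detected in 5 of 5 morphine-treated and 0 of 5 saline-treated rats, and miR-369-5p in 5 of 5 morphine-treated and 1 of 5 saline-treated rats. The likeness was taken over both groups, so that a group difference like that of miR-34c was part of the choice, and log2 fold changes of 3.17, 2.47 and 3.07 are given as a description. For miR-34a they were miR-100 (0.73), miR-221 (1.09) and miR-320 (1.10), against a median of 1.97. Their log2 fold changes were -1.04, -0.94 and -1.35. Values at the floor add to a likeness, since probes below 30 on the same arrays agree there by construction.

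Other miRNAs of the p53 pathway and of stress were read beside the 32.6% of all tested probes that were higher and the 11.6% that were lower. Of 11 measured miRNAs that p53 raises in human or mouse cells, 7 were tested, 0 were higher, 1 was lower and 6 did not pass, with a median log2 fold change of -1.02 against 0.45 over all tested probes. The 1 lower was the epithelial miR-200c (detected in 1 of 5 morphine-treated and 5 of 5 saline-treated rats, log2 fold change -1.75, limma, adjusted p = 0.0338), and for the smooth muscle miR-145 limma gave -1.43 on the log2 scale, with an adjusted p of 0.0876. miR-145 and miR-143 of this list are also vessel wall and connective tissue markers, of which 4 of 8 were lower and 2 higher. Neither miR-145 nor miR-143 was among those 4, and the part of those cells in the list was not tested. Of 6 miRNAs that lower p53, 3 were tested and 2 were higher. These were miR-33, which acts on cholesterol export (scaled intensity 2610 in morphine-treated and 109.8 in saline-treated rats, log2 fold change 4.47, limma, adjusted p = 8.91e-05), and miR-30d (log2 fold change 3.58, limma, adjusted p = 0.00414), while for miR-125b-5p limma gave 0.68 on the log2 scale, with an adjusted p of 0.439. Of 9 measured stress-linked miRNAs of brain, 7 were tested, 3 were higher, 0 lower and 4 did not pass, with a median log2 fold change of 1.94. The 3 were miR-124 (log2 fold change 5.75, limma, adjusted p = 8.33e-07) and miR-132 (at least 21.1-fold higher, limma, adjusted p = 1.68e-05), both also neuronal markers, and miR-135a, which acts on serotonin signaling (log2 fold change 4.06, limma, adjusted p = 0.00260). miR-132 was detected in 5 of 5 morphine-treated and 0 of 5 saline-treated rats. Its p does not measure a spread between saline-treated rats, and its bound holds for subtracted local background only. The neuronal markers, of which all 9 tested were higher, moved with the last list, and their part in it was not tested. Several of the 9, miR-9, miR-128 and miR-132 among them, entered the test through the morphine arrays alone. That count was thus in part set by which probes were tested.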

How the data were processed

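The authors scanned the arrays (miRCURY LNA) with a GenePix scanner and extracted spots with GenePix Pro 6.0. The deposited spot table gives foreground intensity and intensity minus local background, on a linear scale with no scaling between arrays. The sources used here do not give slides, scan dates or how local background was estimated. The deposited value table equaled the median of each probe's spots in all 35410 values (to within 1e-06). Spots were averaged, arrays scaled to their median over 120 probes at 30 or more on all 10 arrays, values floored at 30 and log2-transformed. The 301 probes that reached 30 on 5 arrays or more entered a linear model with moderated variance (limma 3.58.1, R 4.3.3), with Benjamini-Hochberg adjustment. A probe undetected on all saline arrays entered through the morphine arrays alone. The limma p of such a probe does not measure a spread between saline-treated rats. Other tests were two-sided exact permutation tests. The fit was tested on simulated log2 values that had no floor and no filter on dim probes, unlike the data here. The number of arrays limits the precision. No arrays were identical. RefSeq sequences and gene spans were read with Python 3.11.15 and pandas 2.3.3, and array names were matched to arms by the star notation, as probe sequences were not used here.

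The members, lists and tests were chosen with earlier results of these data known. Named were the 3 members, their opposite strands, the miR-449 probes, the 3 nearest profiles per tested member and the 2 smallest p of each pathway list. miR-125b-5p, miR-135a, miR-211, miR-9 and miR-128 were named after their values were seen. Alternatives changed how spots were combined, the background, scaling, floor, filter and test, added a replicate block, or left out each array in turn. In fits without 1 array the 301 probes were kept.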

Additional observations from a re-analysis of the deposited data

Results flagged for a closer look

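Over 12 sets of 5 arrays (6 miR-34 probes in 2 groups), 2 held an array far from the other 4, where chance gives about 1 in 20, and both were morphine replicate 4. miR-34c* had a scaled intensity of 1113.61 there, against 434 on the next highest morphine array, and its 4 spots ran from 434 to 2595. miR-34a* had a scaled intensity of 27.67 there, under the floor of 30, against -24.9 on the next highest. Morphine replicate 4 had the lowest local background of the arrays (median 63). Without it, the log2 fold change of miR-34c* was -0.02 and that of miR-34c was 2.53.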

How the results depend on the processing

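miR-34c kept its direction in all 26 alternatives and passed in 24 (limma, or the methods' t-test for 1, adjusted p). Of the 26, 10 kept the processing and left out 1 array, and miR-34c passed in all 10. In those 10 its saline values all lay at the floor, and it entered through the morphine arrays alone. These passes thus do not measure a spread between saline-treated rats. It did not pass with normexp (0.34) or cyclic loess (0.58), and the cause was not tested. The floor moved its log2 fold change to 4.03 at 10 and 0.72 at 100, and no background subtraction to 0.99, where it passed. Less the median of all tested probes, miR-34c was 2.00 as reported, 0.55 with normexp and 0.86 after cyclic loess. miR-34a stayed negative in 26 ways and passed in 3, with quantile normalization (-2.44), cyclic loess (-2.97) and the negative-control baseline with probes chosen again (-1.76), the last a choice made after seeing the data, as was leaving out spots of high local background. The median of all tested probes was 0.45 as reported, -0.43 with quantile normalization, -0.27 with cyclic loess, -0.21 with normexp, -0.46 with scaling over all tested probes, 0.11 with the negative-control baseline and -0.22 with probes chosen again. miR-34b was -0.52 with normexp and not called in any. miR-34c* turned to -0.35 with no background subtracted, -0.42 with normexp, -0.25 with the negative-control baseline, -0.61 with probes chosen again, -0.48 with quantile normalization, -0.34 with cyclic loess, -0.71 with scaling over all tested probes, -0.083 with a floor of 100 and -0.46 in the methods' t-test, all uncalled. miR-34b* passed in 1 way, at -1.86 with scaling over all tested probes. miR-34a*, outside the 301 tested probes, was -0.67 with no background subtracted and -1.12 with normexp, each with an unadjusted exact permutation p of 0.00794. Leaving out 1 array gave 2.37 to 2.53 for miR-34c (limma, adjusted p of 0.000190 to 0.000994), -1.85 to -0.70 for miR-34a, 0.00 to 0.29 for miR-34b, -0.77 to 0.75 for miR-34c* and 102 to 136 called probes. The count of 133 called probes was 33 among the 120 detected on all 10 arrays, with 19 higher and 14 lower. Neither miR-34a nor miR-34c was tested there, and the median of all tested probes was -0.21. The count was 25 with the methods' t-test after Benjamini-Hochberg, which gave 111 at over 2-fold and an unadjusted p under 0.05. The replicate numbers gave no sign of paired rats (correlation of deviations -0.40 to 0.05, 0 of 5 pairs over 0.1). The labels state no pairing, and weak correlations cannot exclude one. A replicate block gave 107 calls and left miR-34c at 2.45 (limma, adjusted p = 0.00350). Of the ratios, miR-34c over miR-34a passed in 2 of 5 other ways.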
